A study of Mus musculus with 18 samples.

Results

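Brains of mouse pups that carried no intact metallothionein allele were compared with brains of pups that carried 1, in lead-treated and in saline-treated litters. The samples were those titled Mt-KO (-/-) and HET (+/-), which gave 4 of the 6 arrays of the series, or 12 of its 18 deposited columns, since each array was summarised by 3 algorithms. The 4 pools were HET saline, Mt-KO saline, HET lead and Mt-KO lead, and each pool was 1 array with RNA from the whole brains of 5 pups described as male and female. All pups were 8 days old and came from a brother-sister cross after the knockout had been bred onto C57BL/6J for at least 7 generations. In the lead groups, lead acetate was injected at 50 mg/kg on days 7 and 8, with 2 injections a day at an interval of 4 h, and saline was injected on the same schedule in the controls. The last injection preceded the collection of brains by 6 h. The 2 wild-type arrays were not used here. Mt-KO was set against HET within each treatment, so the design held 2 pairs, a saline pair and a lead pair, with no replicate of any pool.

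Metallothioneins are small cysteine-rich proteins that hold zinc and copper ions and take up toxic metals such as cadmium. Mt1 and Mt2 are made in most tissues, and in the brain mainly by astrocytes, where metals, glucocorticoids and oxidative stress raise their transcription through the metal-sensing factor MTF1. Mt3 is found mostly in the brain, in zinc-rich neurons among other cells, and Mt4 in stratified epithelia. The second postnatal week of the mouse is the time when synapses form and when oligodendrocytes begin to wrap axons in myelin.

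Levels are RMA values, the log2 brightness of a gene's brightest probe set, and differences are Mt-KO minus HET after each array was centred on its median gene. A gene was called when the adjusted p of limma, a linear model that shares the spread over genes, was under 0.05 in a fit with treatment as a block over 10916 genes. Only 1 residual degree of freedom remained, and limma estimated an infinite prior. A gene's p-value therefore used the spread of genes as bright as it, and ignored how far its own 2 pairs disagreed. The p-values rest on 1 pool per group and do not measure the spread between animals.

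The 4 arrays were alike in general. Their medians over the genes tested were 10.91 in HET saline, 10.92 in Mt-KO saline, 11.04 in HET lead and 11.01 in Mt-KO lead, and Pearson correlations between arrays across genes lay between 0.987 and 0.993. The 3' probe set of Gapdh exceeded the 5' probe set by 0.68, 0.54, 0.82 and 0.57 on the log2 scale in the same order, so the gap was larger in both HET pools. For Actb the gaps were 0.48, 0.37, 0.38 and 0.45, larger in HET with saline and smaller in HET with lead. The part of RNA quality in the results was not tested. As a check of the labelled tissue, all 18 measured genes of synaptic vesicles and all 16 of astrocytes were bright enough to be tested, although brightness also depends on the probe. Sex-linked and pituitary genes set single pools apart, as described further on.

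The genotypes differed at 806 of the genes tested (7.38%), of which 344 (3.15%) were higher and 462 (4.23%) lower in Mt-KO (limma adjusted p under 0.05). The differences were small, with a median size of 0.25 on the log2 scale among the called genes, and 27 of the 806 reached 1.5-fold. The sign was the same in both pairs for 790 of the called genes (98.0%) and for 64.6% of all genes tested. A call rests on the mean of the same 2 pair differences, so a shared sign is favoured by the selection and is no separate support. At 1.5-fold or more in both pairs separately, 11 genes differed the same way and 2 in opposite ways. Those higher in both pairs were Carnmt1, Fam171a2, Inpp4a, Rbm45, Rpl27a, Samhd1 and Tmem181a, and those lower were Bpifb1, Mbp, Mt1 and Stk32a. After quantile normalization 10 genes differed the same way at this size, 7 higher and 3 lower. Mbp no longer reached it in both pairs, with a fitted difference of -0.48.

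The count depended on the summary and on the spread assumed. With GC-RMA values of the same arrays no gene passed limma's adjusted threshold, while 2171 had an unadjusted p under 0.05 and 93 an adjusted p under 0.10. With log2(PLIER + 16) values 664 passed, 362 of them shared with the 806. After quantile normalization of the RMA values 529 passed, and the balance turned, with 57.7% of the called genes higher in Mt-KO against 42.7% before. Without the treatment block 4 genes passed: Mt1, Rbm45, Carnmt1 and Fam171a2. Leaving out 1 array at a time, without a block, left 16 calls without HET lead, 70 without HET saline, 127 without Mt-KO lead and 80 without Mt-KO saline.

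**Figure D1:**
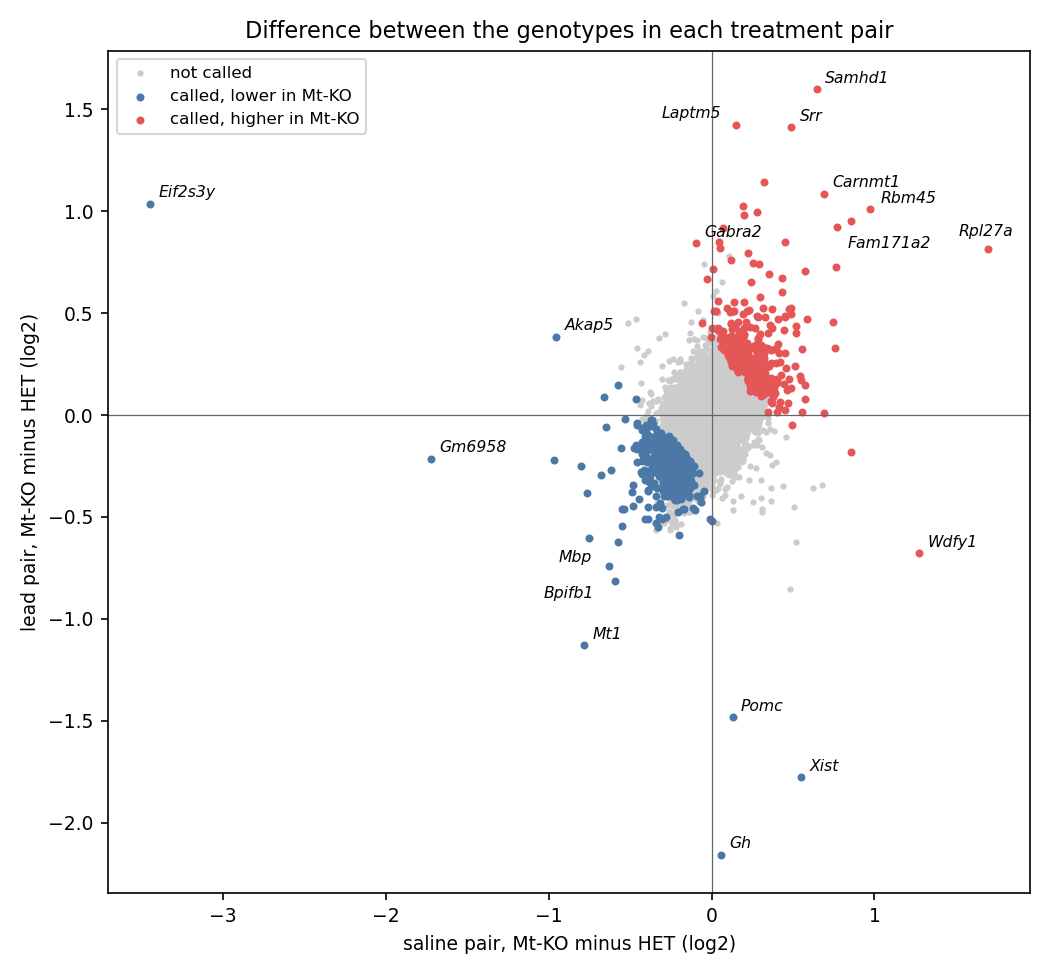
Difference between Mt-KO and HET for each of the 10916 genes tested, in the saline pair (horizontal) and the lead pair (vertical), both in log2 units relative to the median gene of each array; coloured points were called by limma. Mt1 (-0.78 and -1.13) and Mbp (-0.63 and -0.74) lie low in both pairs, whereas Eif2s3y, Xist, Gh, Pomc and Wdfy1 owe their place to 1 pair or point in opposite directions.

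In the plot of both pairs most points form a cloud around the origin that is stretched along the diagonal, and Pearson's r across genes was 0.40. The 2 pairs share no array. The lead pair held more large differences, with 46 genes past 1.5-fold against 29 in the saline pair.

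Mt1, the metallothionein that stands for the knockout here, checked the labels. Its brightest probe set measured 12.45 in HET saline, 11.68 in Mt-KO saline, 12.87 in HET lead and 11.71 in Mt-KO lead. Both Mt-KO pools lay below both HET pools, and the Mt-KO pools were nearly equal. In Mt-KO the level was 1.94-fold lower than in HET (log2 -0.95, SE 0.063, limma adjusted p = 3.75e-48). It was called in all 4 fits that left out 1 array (limma adjusted p from 7.68e-11 to 0.000373) and in 14 of 15 alternatives, where limma's adjusted p ran from 7.46e-46 to 0.0723. The exception was GC-RMA, with a difference of -1.40. Signal above the median gene remained in Mt-KO, and the altered part of the gene is not given in the sources used here. A dimmer Mt1 probe set, at 9.05 to 9.17 on the 4 arrays, differed by -0.070.

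Mt2 lies next to Mt1 on chromosome 8, at 94172618 to 94173567 against 94178883 to 94180327 in the GRCm38.p6 gene table. Mt2 measured 12.05 in HET saline, 11.87 in Mt-KO saline, 12.27 in HET lead and 11.82 in Mt-KO lead. Both Mt-KO pools were again the lower ones. The difference was -0.30 (SE 0.062, limma adjusted p = 0.000109), a 1.23-fold lower level, and thus smaller than that of Mt1 by its point estimate. Mt3, at 94152607 to 94154148 on the same chromosome, measured 13.17, 12.88, 13.35 and 12.98 in the order HET saline, Mt-KO saline, HET lead and Mt-KO lead. Its difference was -0.32 (SE 0.080, limma adjusted p = 0.00305), and -0.22 after quantile normalization. Neither Mt2 nor Mt3 passed in any of the fits without 1 array, where the smallest limma adjusted p was 0.135 for Mt2 and 0.211 for Mt3. Over all alternatives limma's adjusted p ran from 1.79e-05 to 0.702 for Mt2 and from 0.00626 to 0.954 for Mt3. Mt4 was too dim to be tested.

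**Figure D2:**
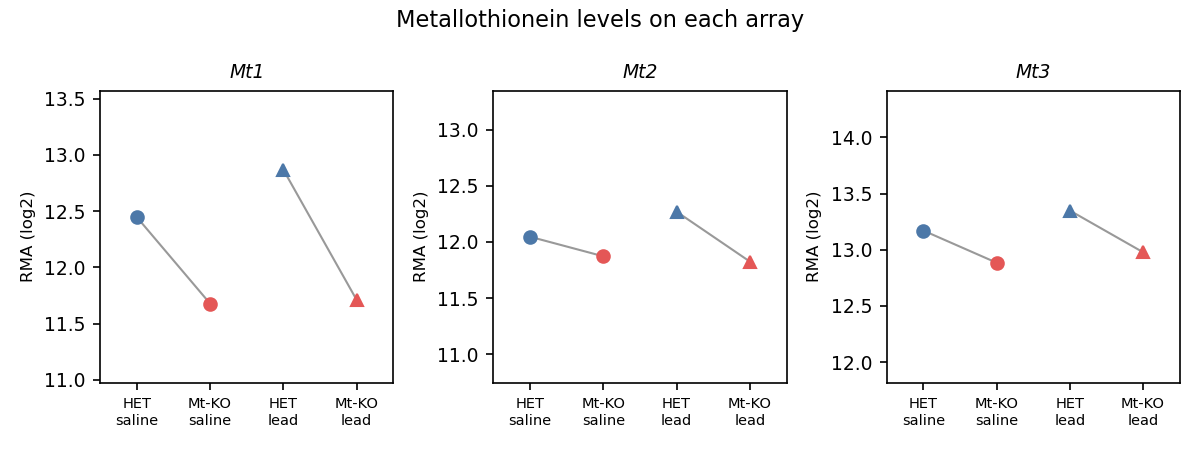
RMA level (log2) of Mt1, Mt2 and Mt3 on each of the 4 arrays, blue for HET and red for Mt-KO, circles for saline and triangles for lead; grey lines join the arrays of a pair and the 3 vertical axes span the same range. The Mt-KO array was the lower one in each pair for all 3 genes, most clearly for Mt1.

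Genes that move the metals bound by metallothioneins had 0 to 2 members called each way per list, to be read against 3.15% higher and 4.23% lower over all genes. Of 20 zinc transporters and regulators tested, 0 were called by limma (4 at an unadjusted p under 0.05, 0 called after quantile normalization, and 1 with log2(PLIER + 16)), and their median difference was 0.0032 against -0.02 over all genes. The furthest of them were Slc39a7, which releases zinc from the secretory pathway, at 0.15 (limma adjusted p = 0.126), and Slc39a12, a zinc importer of the brain, at -0.14 (limma adjusted p = 0.213). Mtf1, the metal sensor itself, measured 10.41, 10.43, 10.44 and 10.48 in HET saline, Mt-KO saline, HET lead and Mt-KO lead. The Mtf1 values thus lay close together among the 4 pools before centring.

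Among 14 copper-handling genes tested, 1 was called higher and 1 lower. Sod1, the copper-zinc superoxide dismutase, measured 12.93 in HET saline, 13.38 in Mt-KO saline, 12.56 in HET lead and 13.20 in Mt-KO lead. Both Mt-KO pools exceeded both HET pools, and the difference was 0.55 (SE 0.078, limma adjusted p = 3.86e-10). The other 4 probe sets of Sod1 differed by 0.014 to 0.14, so the larger value belongs to 1 probe set. Cox17, the copper chaperone of cytochrome oxidase, was lower (log2 -0.23, limma adjusted p = 0.0102). Of 10 iron genes 1 was lower, Aco1 (10%, against 4.23% of all genes). Of 9 NRF2 targets, genes of the antioxidant response, 2 were lower, Cat and Txn1 (22.2%), and 1 after quantile normalization. Aco1 was called in 0 of 15 alternatives and Txn1 in 2 of 15, and Txn1 was at 0.089 with the mean of its probe sets. Catalase, encoded by Cat, measured 12.39, 12.07, 12.65 and 12.39 in the same order and differed by -0.28 (SE 0.065, limma adjusted p = 0.000977). Cat was not called with log2(PLIER + 16) or with the mean of its probe sets. Its dimmer probe set differed by -0.22 with saline and 0.035 with lead.

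Of 13 oligodendrocyte and myelin genes tested 5 were lower in Mt-KO and 0 higher, the largest share of lower calls among the lists with at least 8 genes tested. Oligodendrocytes make these proteins and lipids to build the compact membrane around axons, and the transcription factors OLIG2 and SOX10 set up the programme. The promoters of 4 of the myelin genes called are shown because their genes were lower together in both pairs. They are the 250 bases before the annotated start in the RefSeq promoter table (GRCm38.p6), printed 5' to 3' on the gene's strand: Mobp at chr9:120149492-120149741, Cnp at chr11:100574689-100574938 and Cldn11 at chr3:31149670-31149919 on the plus strand, and Ugt8a at chr3:125938653-125938902 on the minus strand. In the gene table Cnp begins at 100574909 and Ugt8a ends at 125938682, so the last bases of these windows lie inside the gene as given there. Capitals mark the core of the SOX family motif, ACAAAG or ACAATG, on either strand.
Mobp: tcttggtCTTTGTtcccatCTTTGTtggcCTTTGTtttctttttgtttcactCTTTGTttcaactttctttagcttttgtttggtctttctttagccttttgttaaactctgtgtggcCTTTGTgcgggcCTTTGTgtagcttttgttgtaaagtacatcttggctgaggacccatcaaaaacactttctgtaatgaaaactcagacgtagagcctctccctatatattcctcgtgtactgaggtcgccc
Cnp: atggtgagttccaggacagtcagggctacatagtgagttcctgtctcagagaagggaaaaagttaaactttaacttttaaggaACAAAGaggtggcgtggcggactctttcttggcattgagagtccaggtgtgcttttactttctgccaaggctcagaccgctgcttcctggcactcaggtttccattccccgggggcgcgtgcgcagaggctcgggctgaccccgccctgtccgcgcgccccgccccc
Cldn11: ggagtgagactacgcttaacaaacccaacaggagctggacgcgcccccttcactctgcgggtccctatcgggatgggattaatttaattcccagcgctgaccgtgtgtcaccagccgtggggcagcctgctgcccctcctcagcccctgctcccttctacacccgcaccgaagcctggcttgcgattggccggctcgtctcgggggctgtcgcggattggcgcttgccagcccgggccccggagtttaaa
Ugt8a: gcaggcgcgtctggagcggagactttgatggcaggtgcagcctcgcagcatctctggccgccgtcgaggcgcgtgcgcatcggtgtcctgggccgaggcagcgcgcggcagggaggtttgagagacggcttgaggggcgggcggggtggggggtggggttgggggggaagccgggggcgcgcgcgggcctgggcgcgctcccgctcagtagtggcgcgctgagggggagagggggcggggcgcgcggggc
The core was found 6 times in Mobp, each on the strand opposite to the gene (read there as CTTTGT), and 1 time in Cnp on the gene's own strand. Cldn11 and Ugt8a held 0. At least 1 match was present in 25.2% of all 32851 windows of this length, so the matches only describe these letters.

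Mbp, which encodes myelin basic protein, measured 14.22 in HET saline, 13.61 in Mt-KO saline, 14.72 in HET lead and 13.95 in Mt-KO lead. Both Mt-KO pools lay below both HET pools. Its level in Mt-KO was 1.61-fold below that in HET (log2 -0.68, SE 0.13, limma adjusted p = 2.51e-05). The difference was smaller, -0.48, after quantile normalization and with cyclic loess over brightness. The other Mbp probe sets split: 4 further ones, at 11.8 to 13.7 in HET saline, differed by -0.85 to -0.99, and 3 dimmer ones by -0.13 to 0.070. The same probe sets were low in the saline and in the lead pair.

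Cnp, the cyclic nucleotide phosphodiesterase of myelin, measured 13.09, 12.55, 13.40 and 12.83 in HET saline, Mt-KO saline, HET lead and Mt-KO lead. The 2 pairs gave -0.55 and -0.54, and the fit -0.55 (SE 0.077, limma adjusted p = 2.78e-10). Mobp, a structural protein of compact myelin, measured 10.33, 9.81, 10.30 and 9.80 and differed by -0.50 (SE 0.075, limma adjusted p = 6.27e-09). In both genes the Mt-KO pools were the lower ones, without overlap. The other 4 probe sets of Mobp differed by -1.06, -0.87, -0.40 and -0.025, and the other 2 probe sets of Cnp differed by -0.32 and -0.098.

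Cldn11, the claudin that seals the myelin sheath, measured 10.52, 9.56, 10.36 and 10.10 in the same order. Its pairs differed unequally, by -0.97 with saline and -0.22 with lead, and the fit gave -0.59 (SE 0.075, limma adjusted p = 7.25e-13). Ugt8a, which makes the galactolipids of myelin, measured 11.02, 10.27, 11.02 and 10.61 and differed by -0.57 (SE 0.069, limma adjusted p = 5.64e-14). The HET levels of Ugt8a were equal with and without lead, and both Mt-KO pools were below them. Mag, the adhesion protein of the innermost myelin layer, was at 11.44, 11.20, 11.35 and 11.24 and missed the threshold (log2 -0.17, limma adjusted p = 0.0784), although it passed with log2(PLIER + 16) at -0.53. Mog, of the outermost layer, was too dim to be tested, with 7.67 and 7.52 in the HET pools against 7.00 and 6.98 in the Mt-KO pools.

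The 5 lower genes made up 38.5% of the 13 on the list, with 0 higher, against 4.23% and 3.15% of all genes. The lineage factors did not pass: Sox10 differed by -0.17 (limma adjusted p = 0.0586), Olig1 by -0.18 (limma adjusted p = 0.142) and Olig2 by -0.16 (limma adjusted p = 0.13), and the precursor genes Pdgfra and Cspg4 by -0.12 and -0.03. The list's median was -0.17 against -0.02 over all genes. Relative to the median gene, 10 of 13 members were lower in Mt-KO in both pairs, against 4345 of all 10916 genes. Medians of the separate pairs were -0.26 in each. It was -0.16 after quantile normalization and -0.52 with GC-RMA. Galc, which degrades galactolipids, went opposite ways, with 0.62 in the saline pair and -0.36 in the lead pair. In whole-brain RNA, fewer oligodendrocytes and less RNA per oligodendrocyte cannot be told apart.

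These calls rest on few pools. Leaving out 1 array at a time, without a block, Ugt8a passed in 3 of 4 fits, Mobp in 2 and Mbp, Cnp and Cldn11 in 1 each. The sign held in all of these fits, with differences from -0.87 to -0.50 for Mbp, -0.64 to -0.45 for Cnp, -0.58 to -0.42 for Mobp, -0.82 to -0.37 for Cldn11 and -0.70 to -0.45 for Ugt8a. All 5 passed limma after quantile normalization, with log2(PLIER + 16) and in the RMA values as deposited. With GC-RMA none of the 5 passed, while all 5 were lower, at -1.46 for Mobp to -0.60 for Cnp.

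**Figure D3:**
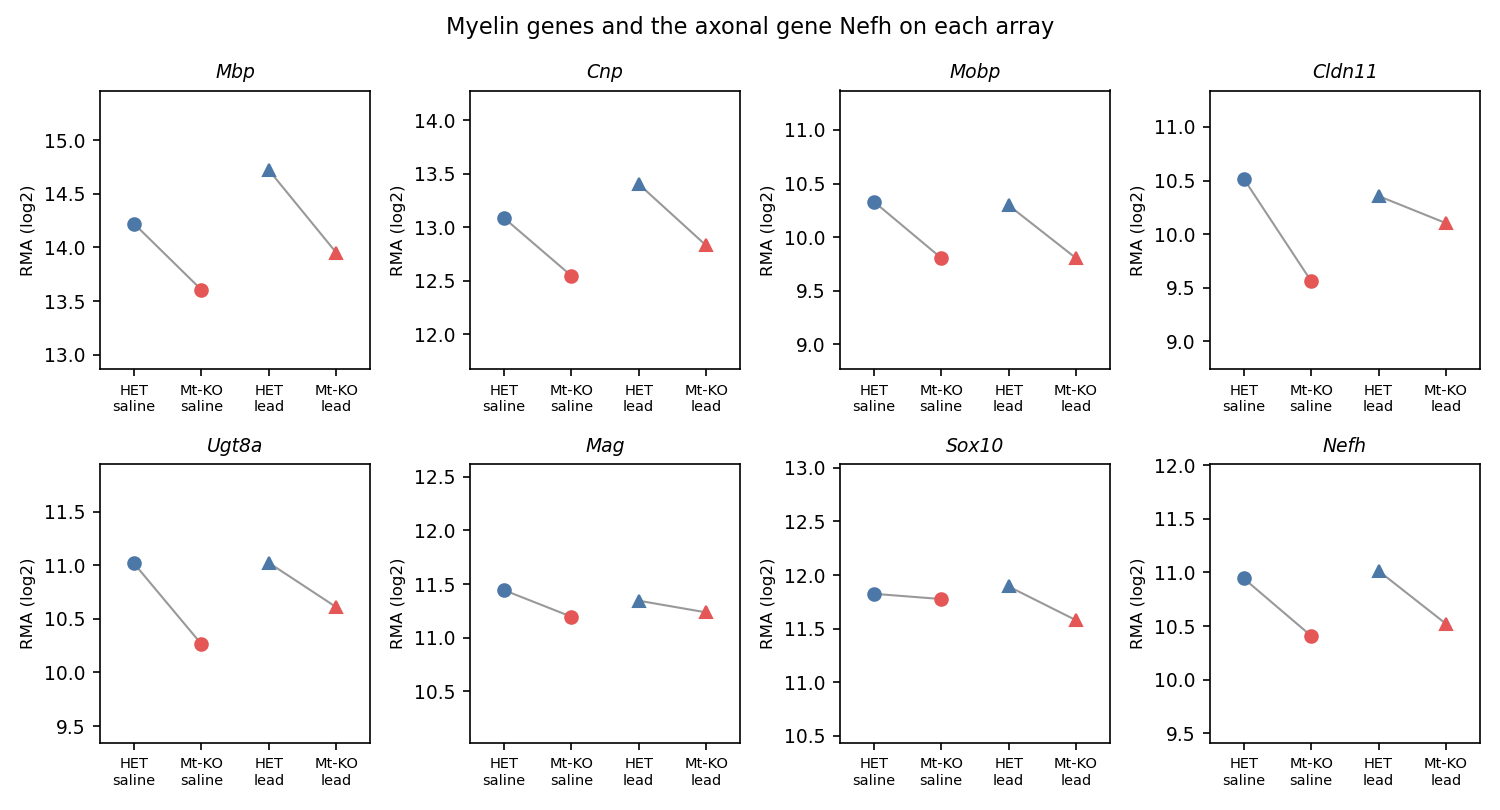
RMA level (log2) of 7 oligodendrocyte genes and of Nefh on each of the 4 arrays, blue for HET and red for Mt-KO, circles for saline and triangles for lead; grey lines join the arrays of a pair and all vertical axes span the same range. The lines fall in both pairs for Mbp, Cnp, Mobp, Cldn11, Ugt8a and Nefh. They fall less for Mag and Sox10, which were not called.

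Nefh, the heavy neurofilament of large axons, was also lower. It measured 10.94 in HET saline, 10.41 in Mt-KO saline, 11.01 in HET lead and 10.52 in Mt-KO lead, and both Mt-KO pools were below both HET pools. Its level in Mt-KO was 1.42-fold below that in HET (log2 -0.51, SE 0.069, limma adjusted p = 9.74e-11). Of 14 potassium channels tested, 3 were lower (21.4%, against 4.23% of all genes) and 0 higher: Kcna1 and Kcna2, which sit on axons beside the nodes, and Kcnj10, a glial channel that takes up potassium. Kcna2 measured 10.28, 10.10, 10.55 and 10.14 and differed by -0.28 (limma adjusted p = 0.00424), and Kcnj10 measured 11.24, 11.03, 11.34 and 11.06 and differed by -0.23 (limma adjusted p = 0.0077). Kcna1 differed by -0.20 (limma adjusted p = 0.0229) and was called in 0 of 15 alternatives. None of the 3 passed in a fit without 1 array.

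Astrocytes take up glutamate and potassium around synapses and are a main source of Mt1 and Mt2 in brain. Of 16 astrocyte genes tested, 5 were lower (31.2%, against 4.23% of all genes) and 0 higher. Glul, glutamine synthetase, measured 13.28 in HET saline, 13.05 in Mt-KO saline, 13.71 in HET lead and 13.28 in Mt-KO lead. The Mt-KO lead pool thus equalled the HET saline pool before centring, while the difference within pairs was -0.32 (SE 0.088, limma adjusted p = 0.00897). S100b, a calcium-binding protein of astrocytes, measured 10.93, 10.63, 11.12 and 10.87 and differed by -0.27 (SE 0.067, limma adjusted p = 0.00326). The other called genes were Aldoc at -0.31, the glutamate transporter gene Slc1a3 at -0.26 and Fgfr3 at -0.19. Gfap and Aqp4, also on the list, were not called and differed by -0.13 (limma adjusted p = 0.241) and -0.10 (limma adjusted p = 0.497).

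The astrocyte median was -0.18. Relative to the median gene, 12 of 16 members were lower in Mt-KO in both pairs, against 4345 of all 10916 genes. After quantile normalization the median was -0.10 and 2 genes, Glul and S100b, kept the call. Slc1a3 turned to 0.11 with GC-RMA. None of the 5 passed in a fit without 1 array.

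Much of what was lower among abundant genes moved with brightness. In the brightest 20% of the genes tested the median difference was -0.11, with -0.072 in the saline pair and -0.14 in the lead pair, against 0.0011 in the dimmest 20%. The brightest group held 159 of the genes called lower and 36 of those called higher. Quantile normalization brought its median to -0.012. The respiratory chain list, with 24 genes tested, had a median of -0.17 that became -0.016 after quantile normalization, and its calls went from 3 lower to 1. Uqcrq, a subunit of complex III, was the lowest in adjusted p of the 3 (log2 -0.28, limma adjusted p = 0.00256). The synaptic vesicle median went from -0.13 to -0.0011 in the same way, cytosolic heat shock from -0.15 to -0.057 and endoplasmic reticulum stress from -0.14 to -0.072. The part of brightness in the differences of these lists was not tested.

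**Figure D4:**
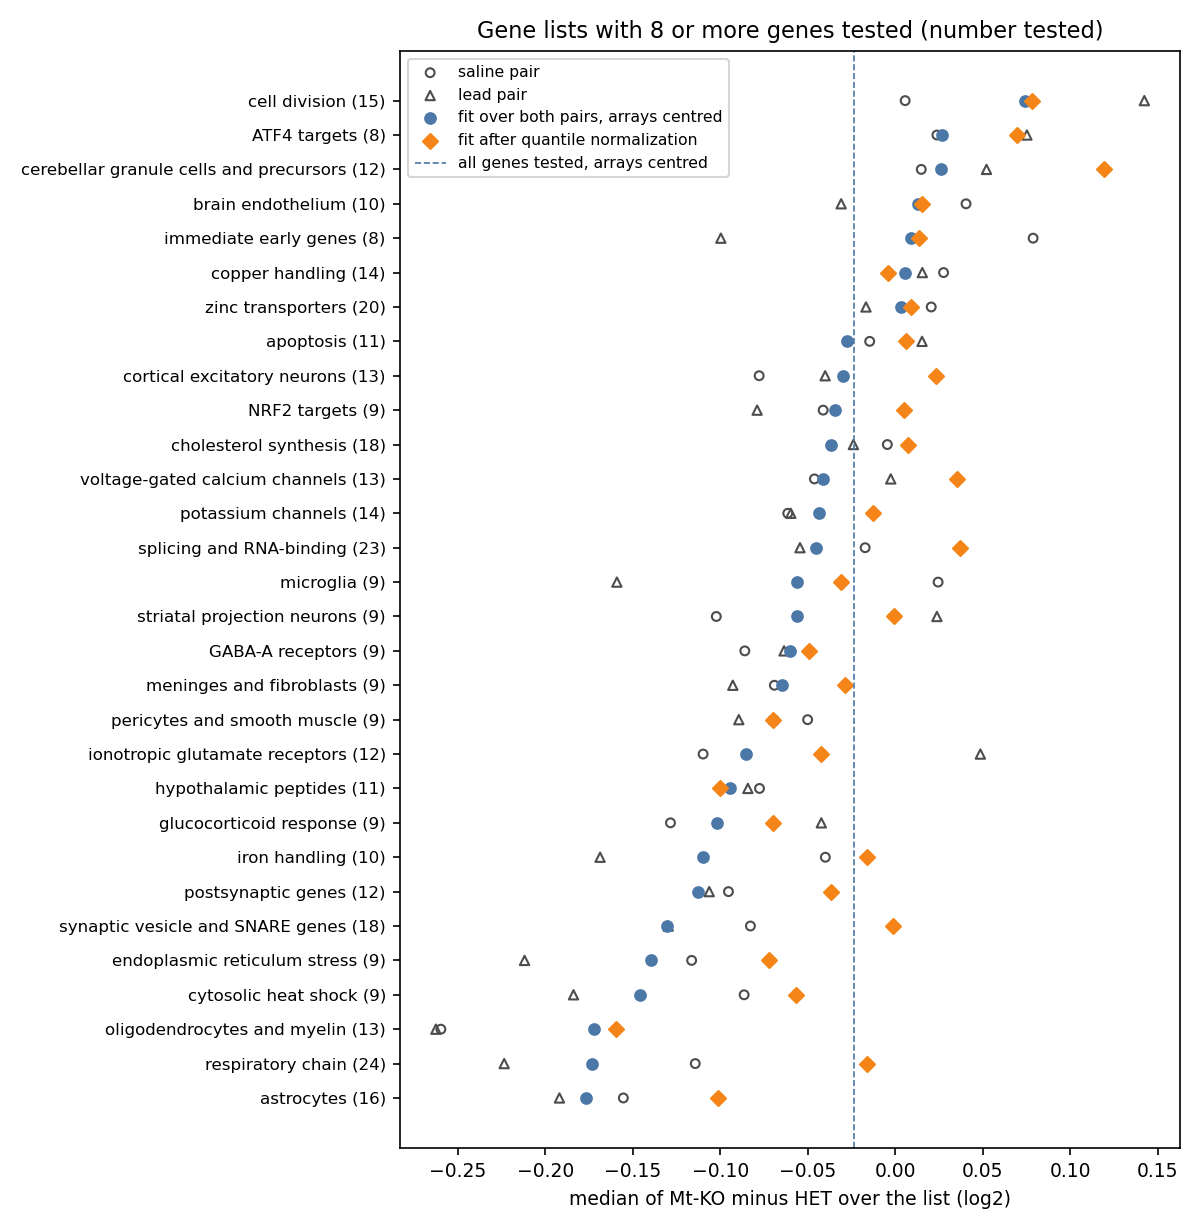
Median difference between Mt-KO and HET (log2) over each gene list with at least 8 genes tested, in the saline pair (open circles), the lead pair (open triangles), the fit over both (blue) and the fit after quantile normalization (orange); the dashed line marks all genes tested. The oligodendrocyte and myelin list stays at -0.17 and -0.16 under both normalizations, whereas the respiratory chain list goes from -0.17 to -0.016.

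Among genes of synaptic transmission a small number were lower. Cacna1b, the pore of the N-type calcium channel that triggers transmitter release, measured 12.40, 12.02, 12.57 and 12.26 in HET saline, Mt-KO saline, HET lead and Mt-KO lead. Each Mt-KO pool was below both HET pools, and the difference was -0.34 (SE 0.064, limma adjusted p = 2.02e-05). The dimmer probe sets of Cacna1b differed by -0.039, -0.038 and -0.010, so the larger value belongs to 1 probe set. The mean over its 4 probe sets differed by -0.11 and was not called. Of 13 calcium channel genes tested, 2 were lower (15.4%, against 4.23% of all genes) and 0 higher. Grik3, a kainate receptor subunit, was the 1 call among 12 ionotropic glutamate receptor genes, or 8.33% (log2 -0.28, limma adjusted p = 0.000313). Slc17a7, the vesicular glutamate transporter of cortical neurons, measured 11.86, 11.41, 11.61 and 11.54, so that its difference of -0.25 (limma adjusted p = 0.00223) came from the saline pair (-0.46) and hardly from the lead pair (-0.04). Slc17a7 was not called after quantile normalization, as deposited or in any fit without 1 array.

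Gabra2, a GABA-A receptor subunit, was called higher (log2 0.37, limma adjusted p = 2.83e-06) from 1 pair only. It measured 11.08, 10.997, 10.49 and 11.30 in the same order, so the HET lead pool was low and the saline pair differed by -0.10. Of 11 hypothalamic peptide genes tested, 10 were lower in Mt-KO in both pairs relative to the median gene, against 4345 of all 10916 genes. The list's median was -0.094. Called among them were Avp, the vasopressin precursor, which was higher (9.09%, against 3.15% of all genes), and Vip, which was lower (9.09%, against 4.23%). Avp measured 10.01, 10.34, 9.97 and 10.24 and differed by 0.31 (SE 0.075, limma adjusted p = 0.00144), with 0.32 and 0.31 in the pairs. Vip differed by -0.22 (limma adjusted p = 0.0357).

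A pair of genes each was higher among markers of dividing cells and of cerebellar granule precursors. Of 15 cell division genes tested, 2 were higher (13.3%, against 3.15% of all genes) and 0 lower. The list's median was 0.0057 in the saline pair and 0.14 in the lead pair. Mki67, a protein of cycling nuclei, measured 10.46, 10.71, 10.76 and 10.97 in HET saline, Mt-KO saline, HET lead and Mt-KO lead. The Mt-KO saline and HET lead pools overlapped, and the difference within pairs was 0.24 in each (SE 0.069, limma adjusted p = 0.014). Ccnb2, a mitotic cyclin, differed by 0.25 (limma adjusted p = 0.0191). Of 12 granule cell genes tested, with a median of 0.026, 2 were higher (16.7%): Pax6 at 0.26 (limma adjusted p = 0.0139) and Zic4 at 0.24 (limma adjusted p = 0.0227). Pax6 measured 9.46, 9.78, 10.14 and 10.31, and its difference was -0.013 without the HET saline array and 0.040 without the Mt-KO lead array. After quantile normalization Mki67 and Pax6 passed, and Ccnb2 and Zic4 did not. In the RMA values as deposited none of these genes passed. The dimmer probe sets of Pax6 differed by 0.021 to 0.16, and the mean of its probe sets, at 0.10, was not called.

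The gene with the largest higher call was Rpl27a, which encodes a ribosomal protein. Its brightest probe set measured 8.92 in HET saline, 10.63 in Mt-KO saline, 9.02 in HET lead and 9.80 in Mt-KO lead. The HET pools were alike and both Mt-KO pools higher, by 1.70 with saline and 0.81 with lead. Over both pairs Mt-KO exceeded HET 2.39-fold (log2 1.26, SE 0.076, limma adjusted p = 2.04e-56). Its other probe set, dimmer at 6.82 to 7.18, differed by 0.19. The HET mean of Rpl27a, 8.97, was below the lowest mean level tested, 9.42, so the gene passed the brightness filter only through Mt-KO. Without the filter it differed by 1.246 (limma adjusted p = 2.2e-08).

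Rbm45, an RNA-binding protein, measured 9.62, 10.60, 9.67 and 10.64 in the same order, the most even of these genes. The pairs differed by 0.97 and 1.01, and the fit gave 0.99 (SE 0.075, limma adjusted p = 1.01e-36). It had 1 probe set, and the summaries disagreed: 0.32 with GC-RMA and 0.18 with log2(PLIER + 16). Fam171a2 measured 10.87, 11.65, 10.96 and 11.85 and differed by 0.85 (SE 0.062, limma adjusted p = 2.39e-38). Carnmt1, which methylates carnosine, measured 10.03, 10.73, 10.10 and 11.16 and differed by 0.89 (SE 0.072, limma adjusted p = 8.76e-32). In all 3 the Mt-KO pools exceeded the HET pools without overlap, and the 3 were called in every fit without 1 array. Tmem181a, Inpp4a, a phosphatase of phosphoinositides, and Gatd1 were also higher in both pairs, by 0.90, 0.75 and 0.64 in the fit.

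A second set of higher calls came mainly from 1 low array, HET lead. Samhd1, which degrades deoxynucleotides, measured 12.39 in HET saline, 13.05 in Mt-KO saline, 10.94 in HET lead and 12.51 in Mt-KO lead. The HET lead pool was the lowest by more than a log2 unit, and the fit gave 1.12 (SE 0.063, limma adjusted p = 1.93e-65). A second probe set of Samhd1 repeated this at 1.24, while 3 others differed by -0.085 to -0.036, and GC-RMA gave -0.0092. Srr, the enzyme that makes D-serine, measured 12.33, 12.84, 11.14 and 12.53, with pair differences of 0.49 and 1.41. Its other 5 probe sets differed by -0.018 to 0.21.

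Laptm5, a lysosomal protein of microglia and blood cells, measured 12.97, 13.13, 11.48 and 12.87 in the same order. Its call at 0.79 (limma adjusted p = 2.27e-27) became -0.022 without the HET lead array, and its other 4 probe sets differed by -0.041 to 0.083. Laptm5 was the 1 call among 9 microglia genes tested (11.1% higher, against 3.15% of all genes), whose median was -0.06. Nrip2, Hdac11, Pik3cd and Timm44 were also lowest in the HET lead pool. Their saline pairs differed by 0.32, 0.45, 0.28 and 0.20, and their lead pairs by 1.14, 0.85, 0.99 and 1.03. Without HET lead, where the fit has no block and sets both Mt-KO pools against HET saline, Nrip2, Hdac11, Pik3cd and Timm44 differed by 0.028, 0.034, 0.013 and 0.053. What set these probe sets apart on the HET lead array was not tested.

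**Figure D5:**
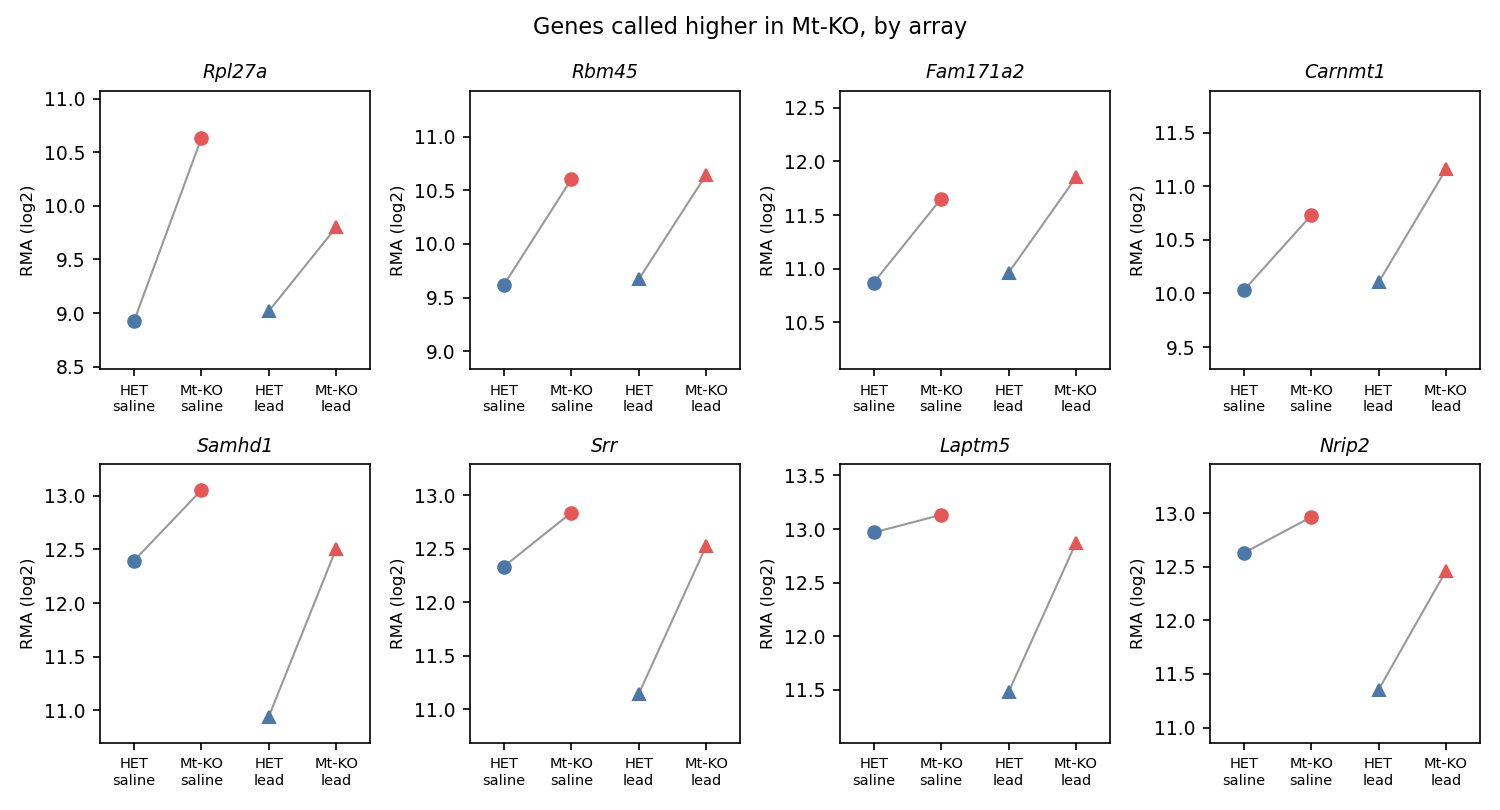
RMA level (log2) of 8 genes called higher in Mt-KO on each of the 4 arrays, blue for HET and red for Mt-KO, circles for saline and triangles for lead; grey lines join the arrays of a pair and all vertical axes span the same range. In the upper row the Mt-KO array was higher in both pairs, and in the lower row the HET lead array was the lowest of the 4, at 10.94 to 11.48.

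Other probe sets of the same genes seldom repeated the higher calls. Among the 15 largest, 12 genes had another probe set, and in 1 of them, Samhd1, another probe set reached 1.5-fold in the same direction. Among the 15 largest lower calls 12 had another probe set and 5 repeated at that size: Gh, Gm6958, Mbp, Pomc and Xist. Of these, Gh and Pomc were high in the HET lead pool only, and Xist went opposite ways in the pairs. Gm6958 differed mostly in the saline pair. Such repeats show that the probe sets read the same pools alike, and not that the genotypes differ. Over all calls, the next brightest probe set, where bright enough to be tested, had the same sign in 65.7% of 134 genes called higher and in 66.8% of 271 called lower, against 55.9% of 4110 genes in all. Its median difference was 0.059 where the brightest gave 0.26, and -0.043 where the brightest gave -0.25. Probe sets of a gene can read different ends or forms of its RNA.

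Beyond myelin, the largest lower calls were varied. Gm6958 measured 10.23, 8.52, 9.86 and 9.61 in HET saline, Mt-KO saline, HET lead and Mt-KO lead. The Mt-KO saline pool stood apart, and the pairs differed by -1.72 and -0.21 (fit -0.97, SE 0.076, limma adjusted p = 1.81e-33). A second probe set gave -1.40 and -0.47. Bpifb1 measured 9.94, 9.35, 9.82 and 8.97 (log2 -0.71, limma adjusted p = 1.89e-17), and Stk32a, a serine/threonine kinase, measured 10.01, 9.27, 9.63 and 9.0 (log2 -0.68, limma adjusted p = 4.84e-16). Tfap2c, an AP-2 transcription factor, was lower in both pairs (-0.58 and -0.62). In these 3 the Mt-KO pools lay below the HET pools without overlap, but dimmer probe sets of Bpifb1 and Tfap2c differed by 0.063 to 0.16, and Stk32a by -0.10 with log2(PLIER + 16). The Mt-KO means of Gm6958, Bpifb1, Stk32a and Tfap2c, at 9.07, 9.16, 9.13 and 9.29, were below the lowest mean tested, so these genes passed the brightness filter only through HET. All 4 were also called by limma without the filter, at -0.98, -0.71, -0.69 and -0.61. Of the 806 calls, 35 had the mean of 1 genotype below that level.

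Tcf7l2, a Wnt effector that marks thalamic neurons and is also made by young oligodendrocytes, measured 11.41, 10.62, 11.56 and 11.28. Its difference was -0.52 (SE 0.064, limma adjusted p = 7.17e-14), mostly from the saline pair (-0.80 against -0.25). Its other 3 probe sets differed by -0.14 to 0.21. Of the 5 thalamic genes tested Tcf7l2 was the 1 called (20% lower, against 4.23% of all genes).

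Genes around the altered locus were looked at because a bred-in knockout carries flanking sequence of its donor strain. Of 87 genes tested within 10 Mb of Mt1, leaving out Mt1 and Mt2, 5 were higher (5.75%, against 3.15% of all genes). Lower were 2 (2.30%, against 4.23%), and Mt3, described above at -0.32, was 1 of them. The median of the 87 genes was -0.0065. Farsa, a phenylalanyl-tRNA synthetase subunit, measured 10.48, 10.78, 10.53 and 10.98 in HET saline, Mt-KO saline, HET lead and Mt-KO lead. Both Mt-KO pools were higher, and the difference was 0.38 (SE 0.070, limma adjusted p = 5.88e-06), but the mean over its 4 probe sets differed by -0.068. Rnaseh2a, a subunit of ribonuclease H2 near Farsa on chromosome 8, measured 9.67, 10.10, 9.81 and 10.03 and differed by 0.34 (SE 0.076, limma adjusted p = 0.000548). The part of flanking sequence in these differences was not tested.

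In lists for other cell types and processes the called members numbered 0 to 3 each way, to be read against 3.15% higher and 4.23% lower over all genes. Of 10 brain endothelium genes tested 0 were called (2 at an unadjusted p under 0.05 with limma), of 9 pericyte and smooth muscle genes 2 were lower (22.2%), and of 9 genes of meninges and fibroblasts 1 was higher and 1 lower. Of 4 choroid plexus genes and 3 red blood cell genes bright enough to be tested 0 were called (2 and 2 at an unadjusted p under 0.05 with limma). The glucocorticoid response list without metallothioneins had 2 of 9 lower (22.2%), and the immediate early list 1 of 8 (12.5%). After quantile normalization the calls were 0 for pericytes and smooth muscle, 0 for immediate early genes and 1 for the glucocorticoid response. Splicing and RNA-binding genes had 3 of 23 higher (13.0%) and 1 lower, and 8 higher and 1 lower after quantile normalization. Cholesterol synthesis, which myelin draws on, had 2 of 18 higher and 1 lower, with a median of -0.037.

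The pools also differed in sex-linked and pituitary genes. Eif2s3y, a Y-linked gene, measured 9.93 in HET saline, 6.5 in Mt-KO saline, 10.16 in HET lead and 11.16 in Mt-KO lead. Xist, the non-coding RNA of X inactivation, measured 12.19, 12.75, 12.04 and 10.23, and its second probe set 11.68, 12.63, 12.20 and 7.14. The Mt-KO saline pool was thus low in Y-linked signal and the Mt-KO lead pool low in Xist, although the labels describe both sexes. The sex difference between genotypes therefore ran in opposite directions in the 2 pairs, with Xist at 0.55 with saline and -1.78 with lead. Both genes were called (limma adjusted p = 8.71e-52 for Eif2s3y and 7.4e-21 for Xist), and neither passed after quantile normalization, where limma gave the prior finite weight (limma adjusted p = 0.0883 for Eif2s3y and 0.165 for Xist, in ranges over the alternatives of 3.3e-117 to 0.999 and 7.88e-71 to 0.999). The Mt-KO mean of Eif2s3y, 8.83, was below the lowest mean tested, 9.42, so Mt-KO alone would not have passed the brightness filter. Without the filter Eif2s3y differed by -1.21 and was not called (limma adjusted p = 0.105). The part of sex in other differences was not tested.

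Gh, growth hormone of the pituitary, measured 9.32, 9.40, 11.48 and 9.29 in HET saline, Mt-KO saline, HET lead and Mt-KO lead. Pomc, the precursor of corticotropin, measured 9.58, 9.73, 10.96 and 9.44. Only the HET lead pool was high in either. Of 9 pituitary genes with a probe set these 2 were bright enough to be tested, and the Mt-KO mean of Gh, 9.34, was below the lowest mean tested, 9.42, so Gh passed the filter only through the HET lead pool. Their calls as lower in Mt-KO came from that array. Without it Gh differed by -0.039 and Pomc by -0.057.

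Wdfy1, a protein of early endosomes, changed direction between the pairs. It measured 9.27 in HET saline, 10.56 in Mt-KO saline, 10.49 in HET lead and 9.78 in Mt-KO lead. Mt-KO was higher by 1.27 with saline and lower with lead (-0.68), and the next 2 probe sets repeated this, with 0.89 and -0.77 and with 0.52 and -0.42. Akap5, a scaffold of the postsynaptic density, measured 11.50, 10.56, 11.20 and 11.55, with -0.95 and 0.38 in the pairs. With 1 array for each combination the difference between the pairs could not be tested.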

How the data were processed

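RNA pooled from 5 pups per genotype and treatment was hybridised to 1 array each, per the labels' protocols. The kit named there labels RNA for whole-transcript arrays, but the identifiers in the tables belong to a 3' array. Partek, GCRMA, PLIER and RMA are named in the submitters' processing notes, and no version of them is given in the sources used here. The authors deposited RMA and GC-RMA summaries as log2 values. The PLIER summaries they deposited are linear intensities, used here as log2(value + 16). All 3 are the same arrays and were never counted as replicates.

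Of 45101 probe sets, 34958 had 1 gene symbol, 932 several and 9211 none in the platform annotation, and those with several or none were left out. By gene identifier, 34754 matched the GRCm38.p6 gene table. For each of 18194 genes the brightest probe set was kept. Genes in the upper 60% of mean RMA value, 10916 in number, entered limma (version 3.58.1, R 4.3.3), with treatment as block and arrays centred on the median gene. Its two-sided moderated test used a trend on brightness, and p-values were adjusted by Benjamini-Hochberg at 0.05. Summaries were made with Python 3.11.15 and pandas 2.3.3. The fit was tested on simulated data for this comparison over 10916 genes, with spread between arrays as fitted. Of genes changed by 1 log2 unit 100% were recovered, of those changed by 2 also 100%, and 9 unchanged genes were called. The simulated spread was the one the fit assumes, the same for genes of like brightness, so the recovery does not test that assumption. Changes near 0.25, the median size among the called genes, were not simulated.

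The comparison, the 44 gene lists and the tests were chosen with earlier results of these data known. Named genes were the 15 largest calls each way, the 10 each way with the largest difference of one sign in both pairs, the 5 each way of opposite sign, metallothioneins, Xist and Y-linked genes, and up to 4 members per list. Mtf1, Mog, Sox10, Olig1, Olig2, Pdgfra, Cspg4, Mag, Galc, Slc1a3, Fgfr3, Gfap, Aqp4, Kcna1, Uqcrq and Rnaseh2a were named after their values were seen. Alternatives were the other summaries, quantile normalization, other filters, the mean over probe sets, no trend, no block, other thresholds and leaving out each array. Cyclic loess over brightness was added after seeing the data. The number of arrays limits the precision.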

Additional observations from a re-analysis of the deposited data

Results flagged for a closer look

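The differences between Mt-KO and HET of 11 genes pointed in opposite directions in the 2 treatment pairs, each by 25% or more. Whether the pairs differ was not tested, since each combination of genotype and treatment is 1 array. The value given is the difference in the lead pair minus that in the saline pair, on the log2 scale.

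It was 4.48 for Eif2s3y and -2.33 for Xist, and 1 Mt-KO pool was low in each. It was -1.95 for Wdfy1 and 1.34 for Akap5. It was -0.98 for Galc, the galactolipid hydrolase. Cdhr1, a cadherin of olfactory bulb output neurons, gave -1.33, and Eomes, a transcription factor of the same neurons, -0.96. Snapc1 gave -1.14. In the other direction Kcnj9, a potassium channel, gave 0.96, Vat1 0.93 and Stk25, a kinase, 0.78. At 25% in both pairs, 16 of the genes tested went opposite ways and 67 the same way.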

How the results depend on the processing

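The fit of the centred RMA values called 806 genes. The count was 0 with GC-RMA (limma; 2171 at an unadjusted p under 0.05), 293 with RMA as deposited, 529 after quantile normalization, 511 in the upper 40% of genes, 392 with the mean of the probe sets, 4 without the treatment block, 478 with cyclic loess (added after seeing the data), and 16 to 127 leaving out 1 array at a time. Calls higher in Mt-KO were 42.7% of the total as centred and 57.7% after quantile normalization. Genes past 1.5-fold the same way in both pairs, 11 as centred, numbered 67 at a limit of 25%, 0 at 2-fold, 93 with GC-RMA, 19 and 20 with PLIER plus 16 and plus 1, 7 in the upper 40% of genes and 4 with the mean of the probe sets. The oligodendrocyte and myelin median, -0.17 as centred, was -0.52 with GC-RMA, -0.24 with both PLIER forms, -0.18 as deposited, without the brightness filter and with the mean of the probe sets, -0.16 after quantile normalization and with cyclic loess, and -0.15 in the upper 40% of genes. It ranged from -0.31 to -0.19 leaving out 1 array. Signs turned for Slc1a3 with GC-RMA (0.11) and with the mean of the probe sets (0.048), Samhd1 with GC-RMA (-0.0092), Wdfy1 with GC-RMA (-0.10) and Farsa (-0.068) and Txn1 (0.089) with the mean of the probe sets. Leaving out 1 array, Laptm5 ranged from -0.022 to 1.60, Xist from -1.92 to 0.69, Eif2s3y from -3.49 to 1.08, Wdfy1 from -0.24 to 0.84, Akap5 from -0.74 to 0.17 and Pax6 from -0.013 to 0.53. The causes were not tested. Of 63 called genes with values in the text, 53 kept their sign in every alternative run. The pools were paired by treatment, which is the block of the fit reported. With 1 pool per group, spread between animals was not measured.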
